A study of Mus musculus with 9 samples.

Results

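The cyclin-dependent kinase (CDK) inhibitors are the 8 mouse genes of this name class: the INK4 genes Cdkn2a, Cdkn2b, Cdkn2c and Cdkn2d, the CIP/KIP genes Cdkn1a, Cdkn1b and Cdkn1c, and Cdkn3, which encodes a phosphatase that acts on CDKs. They were taken by symbol from 53380 rows per library, by a rule that uses no measured value, and all 8 were found. The list was drawn up with earlier results of these data known. RNA was sequenced from a cultured mouse leukemia of the T-ALL type (T cell acute lymphoblastic leukemia). Its donor mice were FVB/N animals with the transgenes EμSRα-tTA and tet-O-MYC, in which a tetracycline transactivator under the EμSRα promoter drives human MYC and doxycycline silences it. The 3 groups, of 3 libraries each, were harvested after 48 h. MYC on cells were mock treated, which the methods give as PBS. Doxycycline was given at 20 pg/mL to MYC intermediate cells, and for MYC off the dose was 500 pg/mL. Cells of every group carry both transgenes, only the treated groups received doxycycline, and cells with doxycycline but without the MYC transgene are not analysed here. Neither the labels nor the methods say whether these cells were 1 clone or whether replicates were separate cultures, so a p-value here speaks only to how far the libraries scatter, which may be technical.

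CDKs drive a cell from one phase of its cycle to the next, each bound to a cyclin. INK4 proteins bind CDK4 and CDK6 and keep D-type cyclins from activating them, so that the retinoblastoma protein stays unphosphorylated and holds E2F factors back. CIP/KIP proteins bind cyclin-CDK2 complexes and, at high level, stop them, while with cyclin D-CDK4 they also help assembly. MYC is known for repressing several of these genes, in part through its partner MIZ1 (gene Zbtb17), and for raising p19Arf from the Cdkn2a locus in cells under oncogenic stress. In thymocytes Cdkn2c and Cdkn1b limit proliferation, and loss of CDKN2A is frequent in T-ALL.

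Library totals ran from 18705516 to 39678799 counts. The human MYC transgene was at 893 to 993 TPM (counts per gene length, scaled to 1 common total per library) in the MYC on libraries, at 287 to 308 TPM in the MYC intermediate libraries and at 2.45 to 2.98 TPM in the MYC off libraries, which follows the labels. All 15 T cell markers had counts, and their summed level was 7667 to 8006 CPM (counts scaled to the library total) with MYC on, 12938 to 14315 CPM with MYC intermediate and 17029 to 18354 CPM with MYC off. Of 5 B cell markers, 4 were at 0 counts and the sum did not pass 0.267 CPM, and of 7 myeloid markers, Lyz2, Adgre1 and Cd14 were at 0 counts while the sum was 26.6 to 43.6 CPM. Most of that sum was Csf1r, with group means of 24.8, 20.7 and 19.5 CPM in MYC on, intermediate and off cells, and Itgam, with 3.88, 13.3 and 22.1 CPM, so the myeloid sum was highest with MYC off through Itgam while Csf1r was lowest there. Erythroid markers summed to at most 0.102 CPM and stromal and endothelial markers to 6.48 to 9.50 CPM. The part of these markers in the results on the inhibitors was not tested.

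Promoter sequence was looked at for the inhibitors because 5 of them were higher with MYC off than with MYC on, 4 of these already at MYC intermediate. RefSeq windows of GRCm38.p6 (250 bases before to 50 after each start) were found for 7 of the 8 genes, 10 windows in all, with none for Cdkn1c. Both strands of each window were searched for CACGTG, the E-box that MYC with MAX is known to bind. The GC box GGGCGG, which SP factors are known to bind, was searched in the same way, and so was CCAAT, the box of the trimeric factor NF-Y. The other strings were TTTGAA, the CHR element of genes controlled by the DREAM complex, and GTAAACA, which FOXO factors recognize. For E2F factors TTTCCCGC was used, as well as the variant TTTGGCGC. No string lies inside another. The stretches below show, in capitals, paired GC boxes of Cdkn2d and Cdkn2c, the only E-box found, and the upstream sequence of Cdkn3 with its GC box, CCAAT boxes and CHR element. Each is given 5′ to 3′ on the strand of its gene, and positions are counted from the RefSeq start.
Cdkn2d, chr9:21291304-21291333, minus strand: cgctctGGGCGGggcctgGGGCGGgcttgc
Cdkn2c, upstream start, chr4:109666784-109666813, minus strand: ggcgttGGGCGGggcgtGGGCGGggcccgg
Cdkn2c, downstream start, chr4:109665323-109665350, minus strand: ttgctgaataatCACGTGtgaatcgagg
Cdkn3, chr14:46760291-46760540, plus strand: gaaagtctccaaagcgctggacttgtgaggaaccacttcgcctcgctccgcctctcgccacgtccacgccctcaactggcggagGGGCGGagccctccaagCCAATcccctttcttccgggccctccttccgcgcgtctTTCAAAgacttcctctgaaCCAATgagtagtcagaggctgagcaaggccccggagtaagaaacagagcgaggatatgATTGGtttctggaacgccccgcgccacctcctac

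The Cdkn2d window held 5 GC boxes, of which the pair shown starts at positions -118 and -106. At the upstream Cdkn2c start there were 4, and the pair shown starts at -51 and -40. All 7 genes with a window had a GC box in at least 1 of their windows, including Cdkn2a and Cdkn2b, which were not called. The upstream Cdkn1a window and the downstream Cdkn2c window held none. Counted per window and not per gene, 35.7% of 32851 windows of this length held one. The E-box of Cdkn2c lies 35 bases after the downstream start, and 7.15% of all windows held an E-box. These Cdkn2c and Cdkn2d stretches lie within an exon of the longer GENCODE M21 models of the same genes. Cdkn3 had GC boxes at -166 and at 3 positions after the start, CCAAT boxes at -149, -92, -34 and 10, and a CHR element, read on the minus strand, at -111. CCAAT was in 37.4% and the CHR element in 17.9% of windows. A copy of TTTCCCGC, present in 1.07% of windows, stood at -99 of the upstream Cdkn2a start. No window of the 7 genes held GTAAACA (3.65% of all windows) or TTTGGCGC (0.514%). A match in such a window is a description of letters and not a measured site.

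Turning MYC off raised 5 of the 7 inhibitor genes that could be tested, lowered none, and left Cdkn2a and Cdkn2b without a call. That holds for the main fit, which does not pair libraries. Cdkn2a was called lower in 9 of 18 alternative settings, among them the replicate block. Cdkn2d rose most (4.15-fold), followed by Cdkn2c (3.07-fold), Cdkn1a (2.59-fold), Cdkn3 (2.51-fold) and Cdkn1b (1.89-fold). The test was edgeR's quasi-likelihood test on the counts with Benjamini-Hochberg adjustment over 14098 genes, and a gene was called at an adjusted p under 0.01. In the same comparison 27.5% of all genes tested were called higher and 27.4% lower. The median log2 fold change of the 7 was 1.33, against 0.03 over all genes. That median is the value of Cdkn3, the phosphatase gene, which is also counted among the 5 called higher. At MYC intermediate 4 of the 7 were higher than with MYC on and none was lower, where 17.4% of all genes were called higher and 17.2% lower. Between MYC off and MYC intermediate 3 of the 7 were higher and none lower, where 9.95% of all genes were called higher and 14.7% lower. All 3 comparisons share libraries pairwise and are not independent of each other. Where the groups of a gene are said below not to overlap, the share of all genes for which this holds was not counted. The eighth gene, Cdkn1c, had too few counts to be tested. All values are relative to the library total, and in bulk RNA a change in the share of cells that express a gene and a change in RNA per cell cannot be told apart.

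**Figure D1:**
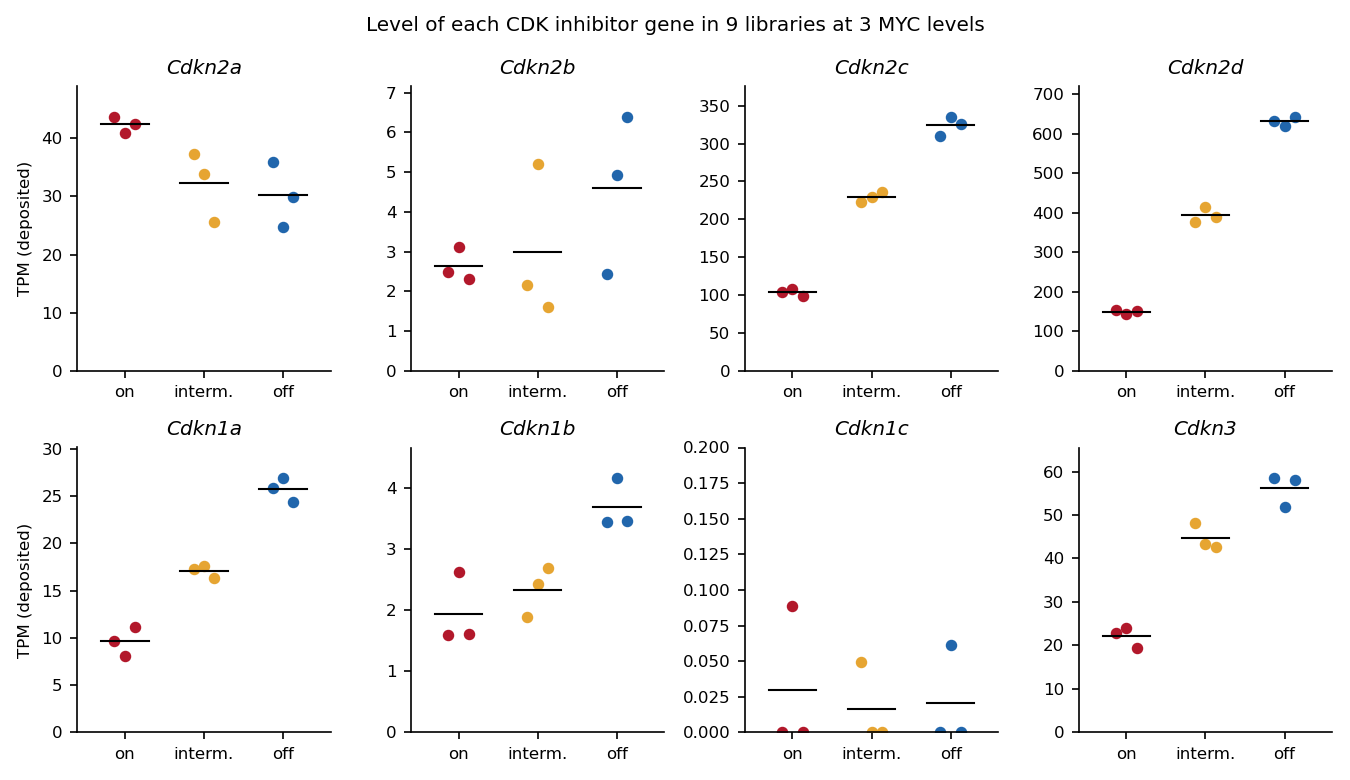
Deposited TPM (vertical axes, each from 0) of the 8 genes in the 3 MYC on, 3 MYC intermediate and 3 MYC off libraries, with 1 point per library and a bar at the group mean. The points of Cdkn2c, Cdkn2d, Cdkn1a and Cdkn3 do not overlap between groups, although the step of Cdkn3 from MYC intermediate to MYC off was not called. The share of all genes whose groups do not overlap was not counted. Cdkn2a was lower in all treated libraries than in the MYC on libraries, and Cdkn1c had 1 count or none in each library.

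Levels of different genes were compared on the TPM scale, which accounts for gene length. With MYC on, Cdkn2d led at 149.6 ± 4.51 TPM (mean ± SD, n = 3), before Cdkn2c at 103.9 ± 5.00 and Cdkn2a at 42.4 ± 1.38. Cdkn3 followed at 22.1 ± 2.41 TPM, Cdkn1a at 9.64 ± 1.53, Cdkn2b at 2.64 ± 0.431 and Cdkn1b at 1.94 ± 0.593. With MYC off the order was Cdkn2d at 631.9 ± 11.6 TPM, Cdkn2c at 324.0 ± 12.995, Cdkn3 at 56.1 ± 3.69, Cdkn2a at 30.2 ± 5.58, Cdkn1a at 25.7 ± 1.25, Cdkn2b at 4.59 ± 2.00 and Cdkn1b at 3.69 ± 0.408. Cdkn3 thus stood below Cdkn2a with MYC on and above it in both treated groups. Cdkn2b and Cdkn1b could not be ordered within their spread in any group, nor could Cdkn2a and Cdkn1a with MYC off. The other neighbours did not overlap.

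Cdkn2d encodes p19Ink4d, an INK4 protein whose level is known to vary through the cell cycle. The gene (ENSMUSG00000096472.2) lies on the minus strand of mouse chromosome 9 (mm10 chr9:21288410-21291407). It was measured at 72.3, 67.3 and 70.4 CPM with MYC on, at 183, 197 and 181 CPM with MYC intermediate and at 302, 291 and 299 CPM with MYC off. Every library of a group was above every library of the group with more MYC. The log2 fold change was 2.05 ± 0.060 (SE) for MYC off against MYC on (edgeR adjusted p = 2.7e-13, 95% confidence interval 1.92 to 2.18). It was 1.43 for MYC intermediate against MYC on (edgeR adjusted p = 1.69e-10) and 0.63 for MYC off against MYC intermediate (edgeR adjusted p = 5.79e-07).

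Cdkn2c encodes p18Ink4c, a brake on lymphocyte proliferation (ENSMUSG00000028551.14, minus strand, chr4:109660876-109667189). It stood at 83.9, 85.9 and 78.8 CPM with MYC on, at 185, 186 and 187 CPM with MYC intermediate and at 253, 268 and 259 CPM with MYC off. The groups did not overlap, and the MYC intermediate libraries spread least (SD 1.37 CPM). Its log2 fold change was 1.62 ± 0.052 for MYC off against MYC on (edgeR adjusted p = 7.09e-13), 1.18 for MYC intermediate against MYC on (edgeR adjusted p = 2.79e-10) and 0.44 for MYC off against MYC intermediate (edgeR adjusted p = 6.77e-06). The TPM ratio of Cdkn2d to Cdkn2c within a library was 1.44 ± 0.0973 with MYC on, 1.72 ± 0.0857 with MYC intermediate and 1.95 ± 0.0983 with MYC off (n = 3 each). This ratio did not overlap between groups, with p = 0.1 in each pair by a two-sided exact permutation test, the smallest p that 3 against 3 libraries allow.

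Cdkn2a (ENSMUSG00000044303.6) and Cdkn2b (ENSMUSG00000073802.4) are neighbours on the minus strand of chromosome 4 (chr4:89274471-89294653 and chr4:89306299-89311039). Cdkn2a encodes p16Ink4a, an INK4 protein, and from another first exon and reading frame p19Arf, which stabilizes p53. Counts per gene cannot separate these transcripts. Cdkn2a was at 15.3, 14.2 and 14.8 CPM with MYC on, at 13.4, 11.995 and 8.88 CPM with MYC intermediate and at 12.8, 8.61 and 10.4 CPM with MYC off. The MYC on libraries were the 3 highest, while the treated groups overlapped. The log2 fold change for MYC off against MYC on was -0.50 ± 0.160 (edgeR adjusted p = 0.0119, 95% confidence interval -0.845 to -0.163), so the gene missed the threshold. Of 18 alternatives 9 brought it past the threshold and 9 did not, all with a negative sign. With the replicate number as a block, which pairs MYC on with MYC off libraries, it passed (log2 fold change -0.53, edgeR adjusted p = 0.00202), as it did without MYC off replicate 1 (-0.69, edgeR adjusted p = 0.00174), without MYC intermediate replicate 1 (edgeR adjusted p = 0.00556) and without MYC intermediate replicate 3 (edgeR adjusted p = 0.00296). It did not pass without any of the other 6 libraries, where the adjusted p from edgeR ran from 0.0172 to 0.0637, the last without MYC off replicate 2 (-0.37). MYC intermediate against MYC on gave -0.35 (edgeR adjusted p = 0.084). Leaving out 1 library gave values from -0.50 to -0.20, the last without MYC intermediate replicate 3 (edgeR adjusted p = 0.30).

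Cdkn2b encodes p15Ink4b, known as a target of TGF-beta signaling. It was near 1 CPM, at 1.03, 1.28 and 0.954 CPM with MYC on, at 0.931, 2.18 and 0.662 CPM with MYC intermediate and at 1.03, 2.04 and 2.63 CPM with MYC off. The groups overlapped in every pair. The log2 fold change for MYC off against MYC on was 0.76 ± 0.406 (edgeR adjusted p = 0.115), and its 95% confidence interval, -0.107 to 1.63, holds changes from a slight drop to one as large as that of Cdkn2c. It was 0.45 without MYC off replicate 3 (edgeR adjusted p = 0.401) and 1.07 without MYC off replicate 1 (edgeR adjusted p = 0.0238), so single libraries moved it widely. A difference was not detectable with these low counts and this spread between libraries.

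Of the other annotated genes within 300 kb of Cdkn2a and Cdkn2b that have a row in the files, only Mtap, which encodes the enzyme that salvages methylthioadenosine, was above 2 CPM. Mtap was at 126.5, 67.0 and 24.8 CPM in MYC on, intermediate and off cells (group means), with a log2 fold change of -2.38 ± 0.070 for MYC off against MYC on (edgeR adjusted p = 2.76e-13). Wincr1, Gm12602, Gm12606 and Tgif2-ps1 were at 0 counts in all 9 libraries, and Gm12607, Gm26490, Gm12608 and Gm27580 had 1 to 33 counts in all. The non-coding genes Gm12609 (log2 fold change 0.55, edgeR adjusted p = 0.202) and Gm12610 (0.61, edgeR adjusted p = 0.0573) were not called. Mtap and Cdkn2a had lower means, and Cdkn2b had a higher mean, with MYC off than with MYC on, but only the change of Mtap passed the threshold.

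Cdkn1a encodes p21Cip1, a p53 target, and lies on chromosome 17 (ENSMUSG00000023067.13, plus strand, chr17:29090976-29100727). It was at 6.45, 5.29 and 7.36 CPM with MYC on, at 11.8, 11.8 and 10.8 CPM with MYC intermediate and at 17.4, 17.8 and 16.0 CPM with MYC off. No group overlapped another. In edgeR's test the log2 fold change was 1.38 ± 0.122 for MYC off against MYC on (edgeR adjusted p = 8.37e-08), 0.85 for MYC intermediate against MYC on (edgeR adjusted p = 4.98e-05) and 0.53 for MYC off against MYC intermediate (edgeR adjusted p = 0.00188). The last call was lost without MYC off replicate 2 (0.51, edgeR adjusted p = 0.0102). A gene model on the opposite strand, AC167363.2, overlaps Cdkn1a in GENCODE M21 and was not analysed here, and without strand in the kit its reads would not be told apart.

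Cdkn1b encodes p27Kip1, which is controlled largely by protein turnover, and lies on chromosome 6 (ENSMUSG00000003031.14, plus strand, chr6:134920401-134925513). It had the lowest mean TPM of the 7 tested inhibitor genes in each group. Its levels were 2.16, 3.53 and 2.18 CPM with MYC on, 2.64, 3.33 and 3.62 CPM with MYC intermediate and 4.76, 5.64 and 4.66 CPM with MYC off. The MYC off libraries lay above the others, whereas MYC on and MYC intermediate overlapped. The log2 fold change was 0.92 ± 0.194 for MYC off against MYC on (edgeR adjusted p = 0.000633), 0.31 for MYC intermediate against MYC on (edgeR adjusted p = 0.227) and 0.61 for MYC off against MYC intermediate (edgeR adjusted p = 0.0168). The last of these passed the threshold on leaving out MYC on replicate 2 (0.60, edgeR adjusted p = 0.00921) but not on leaving out any of the other 8 libraries, with an edgeR adjusted p of up to 0.0702 without MYC off replicate 2 (0.53). MYC intermediate against MYC on ranged from 0.19 without MYC on replicate 3 to 0.55 without MYC on replicate 2 (edgeR adjusted p = 0.557 and 0.0415).

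Cdkn1c, the imprinted gene of p57Kip2 (ENSMUSG00000037664.13, minus strand, chr7:143458339-143461050), had 3 counts in 9 libraries, 1 each in MYC on replicate 2, MYC intermediate replicate 1 and MYC off replicate 2. That is 0.0118 CPM over all libraries. The antisense gene Gm44732, which overlaps it, also had 3 counts. No fold change is given.

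Cdkn3 encodes a phosphatase that removes the activating phosphate from CDK2 and CDK1 and is known to peak late in the cell cycle (ENSMUSG00000037628.10, plus strand, chr14:46760541-46771669). It was at 16.1, 16.8 and 13.7 CPM with MYC on, at 35.2, 31.1 and 29.9 CPM with MYC intermediate and at 42.1, 36.6 and 40.5 CPM with MYC off. The groups did not overlap, and most of the rise was already present at MYC intermediate. Cdkn3 had a log2 fold change of 1.33 ± 0.103 for MYC off against MYC on (edgeR adjusted p = 1.54e-08) and 1.06 for MYC intermediate against MYC on (edgeR adjusted p = 7.1e-07), while MYC off against MYC intermediate gave 0.27 and was not called (edgeR adjusted p = 0.0413). Genes of G2 and mitosis rose too, as described below with their list. The TPM ratio of Cdkn3 to Cdk1 within a library was 0.147 ± 0.0113 with MYC on, 0.239 ± 0.0280 with MYC intermediate and 0.275 ± 0.0234 with MYC off. Against MYC on, each treated group had p = 0.1 by the exact permutation test, the smallest possible, and the treated groups overlapped (exact p = 0.2). The ratio was higher in all 6 treated libraries than in any MYC on library.

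**Figure D2:**
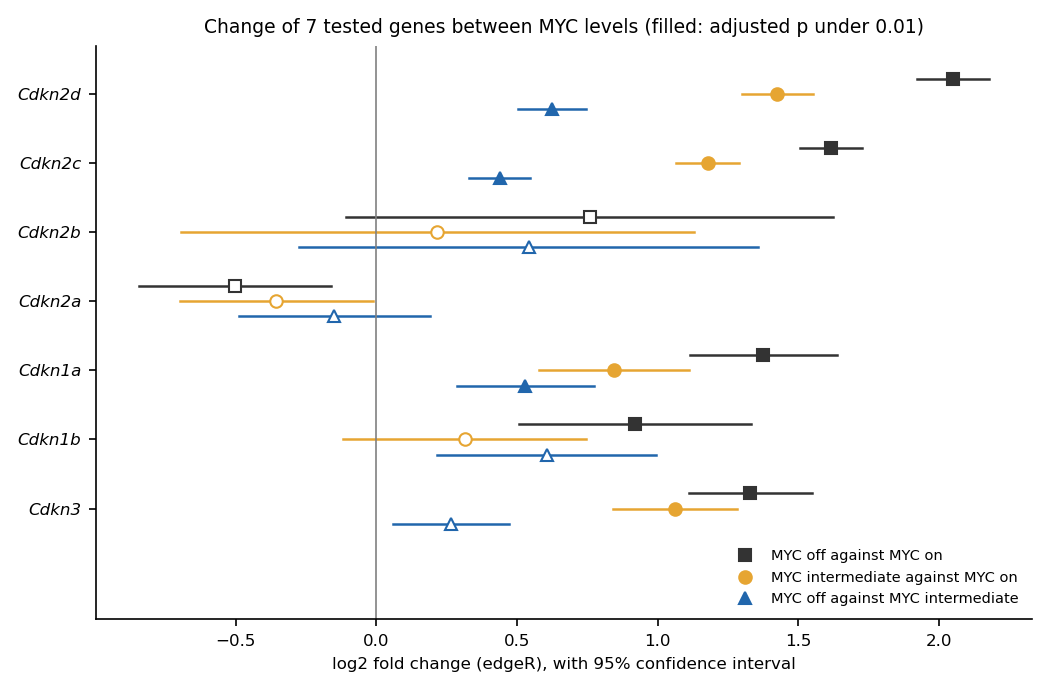
Log2 fold change (horizontal axis, edgeR, bars are 95% confidence intervals) of the 7 tested genes for MYC off against MYC on (squares), MYC intermediate against MYC on (circles) and MYC off against MYC intermediate (triangles), filled where the adjusted p was under 0.01. Cdkn2d and Cdkn2c sit farthest to the right in both comparisons with MYC on, with narrow intervals, Cdkn2a lies left of 0 with no filled symbol, and the intervals of Cdkn2b all cross 0.

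The intermediate dose lowered human MYC RNA 3.06-fold (log2 fold change -1.61), and the higher dose 339-fold (-8.41). On a scale where the log2 level with MYC on is 0 and with MYC off is 1, MYC intermediate stood at 0.19 for the transgene. On that scale it stood at 0.80 for Cdkn3, 0.73 for Cdkn2c, 0.70 for Cdkn2d and 0.61 for Cdkn1a. Cdkn1b was called with MYC off but is not placed, because its rise was under 2-fold. Its log2 fold change against MYC on was 0.31 with MYC intermediate and 0.92 with MYC off. The median position over the 2746 genes called past 2-fold between MYC off and MYC on was 0.56. These positions depend on the log2 scale, where the very low MYC off level of the transgene stretches its axis. In mean TPM the transgene was at 939, 299 and 2.80 with MYC on, intermediate and off. Cdkn2d was at 149.6, 393.4 and 631.9 TPM, and Cdkn2c at 103.9, 229.4 and 324.0 TPM. On that linear scale MYC intermediate had lost most of the transgene RNA, and Cdkn2d stood near the middle. Whether the intermediate level departed from the middle of the other groups was tested directly on the log2 scale. It lay above the middle for Cdkn2d (log2 difference 0.40 ± 0.049, edgeR adjusted p = 0.000195) and Cdkn2c (0.37 ± 0.043, edgeR adjusted p = 0.000134), where 1.7% of all genes were called above the middle and 0.184% below. These shares also cover genes with little change between MYC on and MYC off, and no share was counted for strongly changed genes alone. For Cdkn3 the difference was 0.40 ± 0.085 and missed the threshold (edgeR adjusted p = 0.0128), and it passed without MYC intermediate replicate 3 (edgeR adjusted p = 0.00948) or without MYC off replicate 1 (edgeR adjusted p = 0.0069). It did not pass without any of the other 7 libraries, and was lowest without MYC intermediate replicate 1 (0.32, edgeR adjusted p = 0.0643). Cdkn1a (0.16), Cdkn1b (-0.15), Cdkn2a (-0.10) and Cdkn2b (-0.16) were not called. The relation of the transgene's RNA to MYC protein was not measured here.

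Summed by family, INK4 RNA far exceeded CIP/KIP RNA in every library. INK4 genes summed to 298.5 ± 5.63 TPM with MYC on, 658.1 ± 22.2 with MYC intermediate and 990.6 ± 13.2 with MYC off (n = 3 each). CIP/KIP genes summed to 11.6 ± 1.01, 19.5 ± 0.542 and 29.4 ± 1.63 TPM. Both sums rose, so the INK4 share of their total moved little, from 96.3% with MYC on to 97.1% with MYC off. This total covers the 4 INK4 and 3 CIP/KIP genes, with Cdkn1c and without Cdkn3. Cdkn2a enters it with all its counts, so any p19Arf transcripts are summed as INK4. Within this total, the share of Cdkn2d went from 48.2% to 58.0% and 61.9%, that of Cdkn2a from 13.7% to 4.77% and 2.96%, and that of Cdkn2c was 33.5%, 33.9% and 31.8%. Cdkn2a was thus the only INK4 gene above 10 TPM whose mean level was lower with MYC off than with MYC on.

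**Figure D3:**
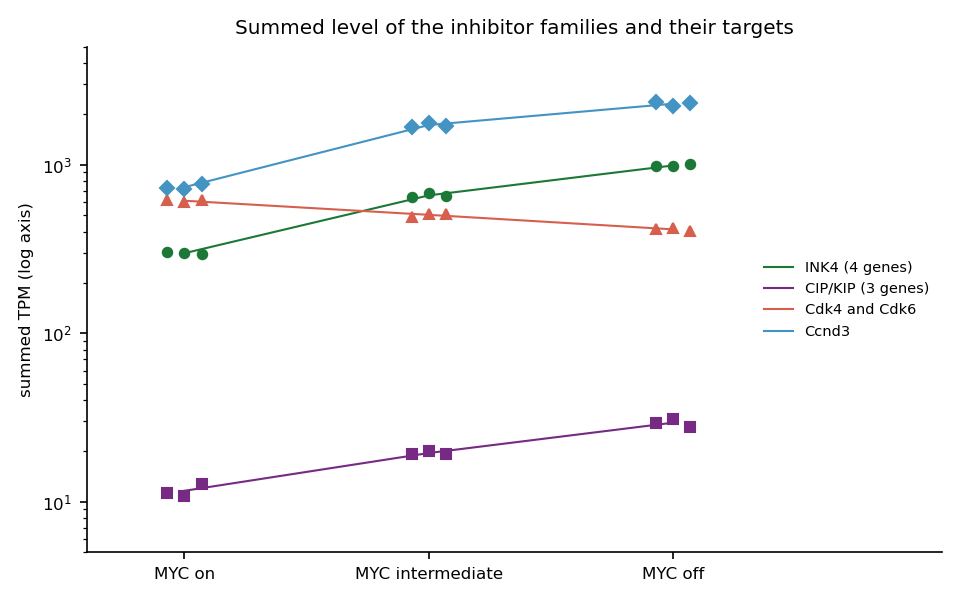
Summed deposited TPM (log axis) of the 4 INK4 genes, the 3 CIP/KIP genes, Cdk4 with Cdk6, and Ccnd3, with 1 point per library and lines through the group means. INK4 RNA was below that of Cdk4 and Cdk6 in the 3 MYC on libraries and above it in all 6 treated libraries.

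The kinases that INK4 proteins bind went the other way. Cdk4 and Cdk6 together were at 611.7 ± 11.02 TPM with MYC on, 504.4 ± 12.1 with MYC intermediate and 413.5 ± 10.3 with MYC off, almost all of it Cdk4 (594, 496 and 411 TPM). The ratio of INK4 to Cdk4 and Cdk6 RNA was 0.488 ± 0.0127, 1.30 ± 0.0293 and 2.40 ± 0.0896, with no overlap between groups (exact permutation p = 0.1 in each pair, the smallest possible). Cdk6 fell by 2.89 on the log2 scale for MYC off against MYC on (SE 0.0998, edgeR adjusted p = 1.4e-12). Cyclin D3, the partner of these kinases in T cells, rose: Ccnd3 was at 736, 1722 and 2304 TPM, with a log2 fold change of 1.62 ± 0.060 (edgeR adjusted p = 3.1e-12). Cyclin D2 went the other way at a low level, with Ccnd2 at 1.65, 0.324 and 0.0728 TPM and a log2 fold change of -4.39 ± 0.327 (edgeR adjusted p = 1.01e-08), and Ccnd1 was at 0.424 to 0.609 TPM and not called. Ccnd2 and Ccnd1 were picked after their values were seen. The summed TPM of Cdkn2c and Cdkn2d relative to Ccnd3 was 0.345 ± 0.0190 with MYC on, 0.362 ± 0.00444 with MYC intermediate and 0.415 ± 0.0148 with MYC off. The range of this ratio was narrower than that of the ratio to the kinases, although no group overlapped another (exact permutation p = 0.1 in each pair). These are RNA ratios, and protein was not measured. In the ratio to the kinases, any p19Arf transcripts of Cdkn2a are counted as INK4.

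Genes around the inhibitors were counted in 7 lists. Of all genes tested, the shares called were 27.5% higher and 27.4% lower for MYC off against MYC on, 17.4% and 17.2% for MYC intermediate against MYC on, and 9.95% and 14.7% for MYC off against MYC intermediate. No list was tested as a set.

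Of 16 tested cyclins and kinases that the inhibitors bind, 6 rose (37.5%), 5 fell (31.2%) and 5 had no call once MYC was off (median log2 fold change -0.01), shares near those of all genes. Besides Cdk6 and Ccnd3, the rule for named genes gave Ccnb2 (cyclin B2, 0.89) and Cdk2 (0.78), both called higher. Cdk4, chosen here after its value was seen, fell by 0.56. At MYC intermediate 6 rose and 4 fell against MYC on, and between MYC off and MYC intermediate 1 rose and 5 fell.

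Downstream of the kinases, 11 of 19 genes of the RB, E2F and DREAM group rose (57.9%, where 27.5% of all genes rose), 4 fell (21.1%, where 27.4% of all genes fell) and 4 were not called with MYC off (median 0.40). E2f2, an activator (log2 fold change 1.40), Rbl2, which encodes the pocket protein p130 (1.34), and the atypical repressors E2f8 (1.24) and E2f7 (1.11) rose most. Activators and repressors were thus both among the genes that rose. At MYC intermediate 9 rose and 2 fell against MYC on, and 5 rose and 2 fell from MYC intermediate to MYC off.

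Of 15 genes listed for the turnover of CIP/KIP proteins, 9 fell with MYC off (60.0%, against 27.4% of all genes), 3 rose (20.0%, against 27.5%) and 3 were not called (median -0.39). On the log2 scale the change was -0.70 for Ddb1, an adaptor of the CUL4 ligase, -0.61 for Skp1a, -0.52 for Cks1b and -0.48 for Skp2, all called. SKP2 with SKP1 and CKS1 forms the ligase that marks p27Kip1 for degradation. At MYC intermediate 2 of the 15 fell (13.3%) and 3 rose (20.0%), near the 17.2% and 17.4% of all genes, and from MYC intermediate to MYC off 7 fell (46.7%, against 14.7% of all genes) and none rose.

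Among 27 tested genes for transcriptional regulators of the inhibitors, 13 rose (48.1%, against 27.5% of all genes), 2 fell (7.41%, against 27.4%) and 12 were not called with MYC off (median 0.32). Foxo1, which encodes a factor known to activate Cdkn1b, rose with a log2 fold change of 1.32, and the ID genes Id2 (0.94), Id1 (0.93) and Id3 (0.82), whose proteins block E proteins, rose as well. Zbtb17, which encodes MIZ1, rose by 0.49 (edgeR adjusted p = 3.75e-05), while Trp53 fell by 0.50. Of the Polycomb genes tested in the list, Ezh2 rose by 0.62 and Bmi1 fell by 0.24, and Suz12, Eed, Rnf2, Ring1, Cbx7 and Cbx8 were not called. Zbtb17, Trp53 and the Polycomb genes were picked after their values were seen. At MYC intermediate 7 rose (25.9%) and 1 fell (3.7%), and from MYC intermediate to MYC off 5 rose (18.5%) and 2 fell (7.41%).

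Cdkn1a is one of many p53 targets. Of 23 others tested, 9 rose (39.1%), 7 fell (30.4%) and 7 were not called with MYC off (median 0.23), not far from the 27.5% and 27.4% of all genes. Tigar, a regulator of glycolysis, fell by 1.86 and Aen, an apoptosis nuclease, fell by 1.71, while the death receptor gene Fas rose by 1.65 and the antiproliferative gene Btg2 by 1.24 on the log2 scale. At MYC intermediate 8 rose and 4 fell against MYC on, and 4 rose and 3 fell from MYC intermediate to MYC off.

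G2/M genes rose almost without exception. With MYC off 27 of 30 were called higher (90.0%, against 27.5% of all genes), none lower and 3 not called (median 0.60), and at MYC intermediate the count was also 27 of 30 with none lower. From MYC intermediate to MYC off 9 rose and none fell. Cenpf (log2 fold change 1.08), Mki67 (0.94), Top2a (0.90) and Ccnb2 (0.89) led, all below the 1.33 of Cdkn3. The TPM of Cdkn3 relative to the sum of this list was 0.00269, 0.00426 and 0.00476 with MYC on, intermediate and off. The share of cells in each phase was not measured, and its part in these values was not tested.

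Other brakes on the cell cycle moved in the direction of the inhibitors. Of 14 tested, 11 rose (78.6%, against 27.5% of all genes), none fell and 3 were not called with MYC off, with a median of 1.07. Among genes with at least 5 CPM in a group, Gadd45g, a stress sensor (log2 fold change 1.92), and Txnip, the thioredoxin-interacting protein (1.87), led. Ccng2, an unconventional cyclin (1.47), and Btg1, an antiproliferative gene (1.37), came next. Gadd45b, below that level, also rose by 1.47 (edgeR adjusted p = 0.00447). Among the inhibitors, Cdkn2d alone had a larger fold change than Gadd45g, and that difference was not tested. From MYC on to MYC intermediate 7 rose and none fell, and from MYC intermediate to MYC off 8 rose and 1 fell. A few genes stand in more than 1 list (Ccnb2 and Btg2 among those named), so the lists are not independent.

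**Figure D4:**
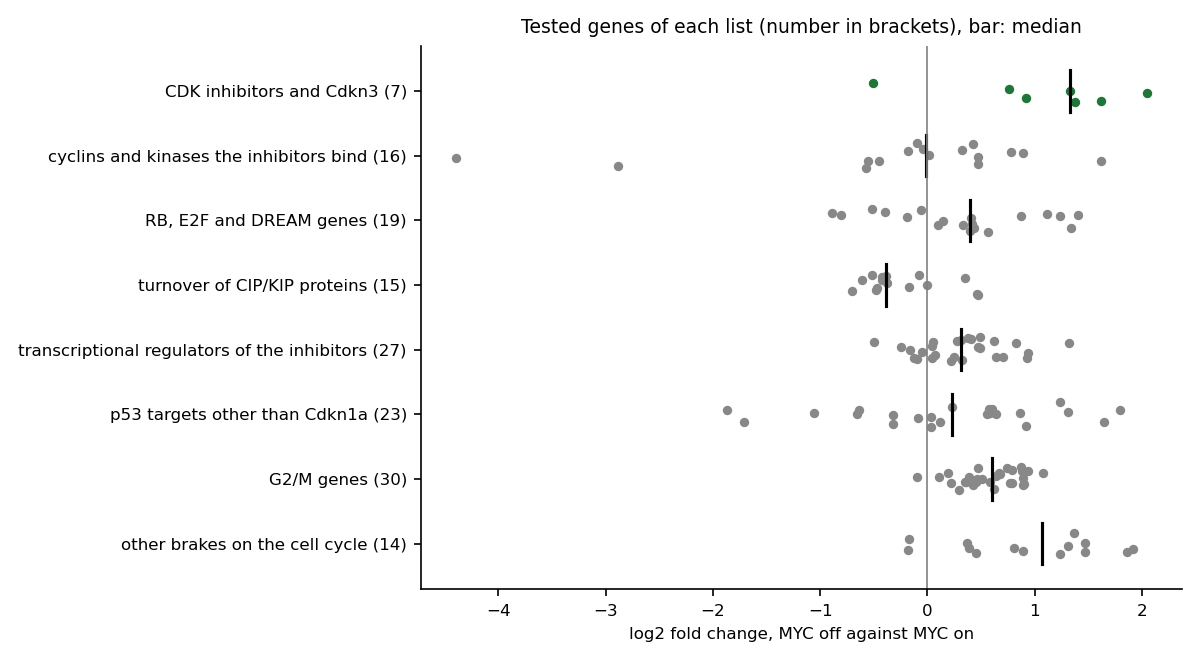
Log2 fold change for MYC off against MYC on (horizontal axis) of each tested gene of the inhibitors (green) and of 7 related lists (grey), with a bar at each list's median and the number tested in brackets; points are spread vertically only for display. The medians of the inhibitors with Cdkn3 (1.33, the value of Cdkn3) and of other brakes on the cell cycle (1.07) lie farthest to the right. The turnover genes (-0.39) lie farthest to the left.

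Likeness between genes was measured as the root-mean-square (RMS) difference in log2 CPM over the 9 libraries after each gene was centred on its mean, among 9203 protein-coding genes at 5 CPM or more in a group. The libraries of a group share their treatment, so this measure mostly compares the steps between groups. Cdkn2d was closest to Tnfaip8l1 (RMS 0.036), Ramp1 (0.071) and Nfkbie (0.075), where the median gene stood at 0.869. Cdkn2c was closest to Sp100 (0.052), Nsmce1 (0.063) and Klhl6 (0.065). For Cdkn1a the nearest were Ccr4 (0.088), Tnfrsf1a (0.094) and Plekhg5 (0.11), and for Cdkn3 they were Stk17b (0.091), Hemgn (0.102) and Slc7a11 (0.103). Cdkn2a was closest to Atp5g2 (0.083), Acot13 (0.097) and Trappc6a (0.107). The low-count genes had looser matches, with Mcts2 (0.15), Cerkl (0.154) and Ltk (0.16) for Cdkn1b and Tmem243 (0.287), Bscl2 (0.343) and Map3k13 (0.353) for Cdkn2b. The median gene stood at 0.695 for Cdkn2c, 0.603 for Cdkn1a, 0.592 for Cdkn3, 0.353 for Cdkn2a, 0.468 for Cdkn1b and 0.621 for Cdkn2b. Among the inhibitors themselves Cdkn2c and Cdkn3 were the closest pair (0.16), then Cdkn2c and Cdkn2d (0.191) and Cdkn1a and Cdkn2c (0.20), and Cdkn2a and Cdkn2d were the farthest apart (1.10).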

How the data were processed

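The authors deposited 1 table per library with raw counts per gene and TPM, the reads per kilobase scaled to a common total. Per the labels and the submitters' processing notes, reads were trimmed with cutadapt 1.16, aligned with STAR 2.5.4b to mm10 and counted with featureCounts. The libraries were primed with oligo(dT) (SMART-Seq v4, Nextera XT), which does not mark strand. The annotation release and strand setting are not given in the sources used here. The deposited score, FPKM and rank columns were not used. Gene identifiers without version suffix were matched to GENCODE M21, and 53274 of 53379 mouse rows matched (50604 with the same version). Gene positions are those of M21, whose versions of Cdkn1a and Cdkn2b differ from the files.

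Counts were tested in R 4.3.3 with edgeR 4.0.16 (TMM scaling, default filterByExpr, which kept 14098 genes, 1 quasi-likelihood fit over all 9 libraries, group as the only term). Single ratios were compared by exact two-sided permutation tests over libraries. Scripts were tested on simulated counts. DESeq2 1.42.0, other scalings and filters, thinning to 18705516 counts, a replicate block and leaving out each library were alternatives. Same-numbered MYC on and MYC off libraries deviated together (correlations over 9946 genes of 0.376, 0.253 and 0.22). The hint that these numbers pair the libraries comes from the data and not from the labels. Pairing entered only the replicate block alternatives, and the main fit and the permutation tests leave it out. Limits set by depth cover counting error only, because reads copied by PCR and lacking molecular identifiers do not count molecules.

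The members, lists and tests were chosen with earlier results of these data known. Named genes are the 8 members, the transgene, up to 4 called genes per list with the largest log2 fold change for MYC off against MYC on and at least 5 CPM in a group, annotated neighbours of Cdkn2a and Cdkn2b, and the 3 nearest genes by RMS difference.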

Additional observations from a re-analysis of the deposited data

How the results depend on the processing

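Each of 28 differences (7 genes, 4 comparisons) was recomputed under 16 to 18 alternatives, 476 values in all, of which 453 kept their direction and side of the threshold, 17 newly passed it, 1 no longer passed and 5 changed sign. The count of inhibitors called was 5 to 6 for MYC off against MYC on, 4 throughout for MYC intermediate against MYC on, 2 to 4 for MYC off against MYC intermediate and 2 to 3 for the test against the middle. Cdkn2a for MYC off against MYC on was also called by DESeq2 (-0.52, adjusted p = 0.0028), by edgeR with DESeq2 size factors (adjusted p = 0.00975), with no count filter (edgeR adjusted p = 9.52e-05), with only the 6 libraries compared (edgeR adjusted p = 0.00231) and with a replicate block on the MYC on and MYC off libraries alone (edgeR adjusted p = 7.45e-05), the last added after the data were seen. It was not called with library totals alone (edgeR adjusted p = 0.0135), with a filter of 1 CPM in 3 libraries (0.0122) or with thinned counts (0.0253), and leaving out 1 library gave values from -0.69 to -0.37. The replicate block over all 9 libraries also gave calls for Cdkn1b between MYC off and MYC intermediate (0.61, edgeR adjusted p = 0.00852) and for Cdkn3 against the middle (0.40, edgeR adjusted p = 0.00384), and changed no other call of the inhibitors; same-numbered libraries did not deviate together in every pair for MYC intermediate. With no count filter Cdkn1b passed for MYC off against MYC intermediate (edgeR adjusted p = 0.00431) and Cdkn3 against the middle (edgeR adjusted p = 7.77e-05), as Cdkn3 did with DESeq2 (adjusted p = 0.00137). The fit with no count filter gave far smaller adjusted p at a like SE. For Cdkn1a, MYC off against MYC on, the edgeR adjusted p was 8.01e-25 (SE 0.129), against 8.4e-08 (SE 0.122) in the main fit. Calls of that fit are thus not on a like scale with the main fit. The changes of sign were in differences that were never called. Leaving out MYC intermediate replicate 2 turned Cdkn2b for MYC intermediate against MYC on from 0.22 to -0.42 (range without each library -0.42 to 0.52). Against the middle, Cdkn2a became 0.055 without MYC intermediate replicate 3 and 0.0011 without MYC off replicate 1 (range -0.25 to 0.055), and Cdkn2b became 0.015 without MYC intermediate replicate 1 and 0.14 without MYC intermediate replicate 3 (range -0.80 to 0.14). The causes of these shifts were not tested beyond the libraries named. The order of the 8 genes by level did not change with counts per kilobase scaled by TMM. Counts were lowest for Cdkn1c, Cdkn2b and Cdkn1b, with 3, 360 and 941 over all libraries.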
